A study of Homo sapiens with 24 samples.

Results

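Metallothionein genes, the zinc exporter gene SLC30A1 and the metal-sensing transcription factor gene MTF1 were followed over 24 arrays of HAP1 cells, a near-haploid human line that the labels derive from the chronic myelogenous leukemia line KBM-7. The set was chosen by symbol, with earlier results of these data known. It held 10 genes: MT1A, MT1E, MT1F, MT1G, MT1H, MT1M, MT1X, MT2A, SLC30A1 and MTF1. Of these, 9 had a probe set of their own, among 22109 genes with a probe set naming a single gene, and MT1A is not analysed here. No probe set that names several genes named any of the 10. The filter on low values passed 7 of the 9. MT1G and MT1H stayed below it and were not tested.

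The arrays cover 6 HAP1 lines in 3 treatment arms. PAR is the parental control, S51A carries a changed serine in the translation factor eIF2-alpha, and ΔHRI, ΔGCN2, ΔPKR and ΔPERK, titled HRI, GCN2, PKR and PERK, each lack one of the kinases that phosphorylate that serine. Each genotype is represented by 1 purchased line. Cells received no drug (9 arrays), lomustine at 200 µM for 2 h (9 arrays), an alkylating and crosslinking chemotherapy drug, or the treatment titled SA100 (6 arrays). The treatment text gives NaAsO2, sodium arsenite, at 100 µM for 2 h. The agent field of the SA100 arrays names lomustine instead, so these arrays were grouped by their titles and are called SA100 throughout. PAR, S51A and HRI have repetitions A and B without drug and with lomustine, and the remaining 12 of the 18 groups of line and arm have 1 array. The labels do not say whether A and B are separate cultures, so the p-values measure the spread between these arrays, which may be technical.

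Metallothioneins are small cysteine-rich proteins that bind zinc, copper, cadmium and other metals through their thiol groups, and trivalent arsenic also binds such thiols. MTF1 is a zinc finger transcription factor that senses zinc, binds metal response elements in the promoters of metallothionein genes and SLC30A1, and turns those genes on. SLC30A1, also known as ZnT1, carries zinc out of the cell across the plasma membrane. Metallothionein induction is a textbook response of human cells to metals and to arsenite.

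Promoters are shown because the metal response element is the sequence through which MTF1 acts on these genes. The core was searched as TGCACNC and TGCGCNC on both strands, overlaps counted, in the 300 bases of RefSeq promoters (GRCh38.p14, 250 before and 50 after the gene start). RefSeq promoters were at hand for 5 of the 10 genes. The 250 bases before the start are printed 5′ to 3′ on the strand of the gene, with every match in capitals. A match is a description of letters and not evidence of binding.
MT2A, chr16:56608334-56608583, plus strand: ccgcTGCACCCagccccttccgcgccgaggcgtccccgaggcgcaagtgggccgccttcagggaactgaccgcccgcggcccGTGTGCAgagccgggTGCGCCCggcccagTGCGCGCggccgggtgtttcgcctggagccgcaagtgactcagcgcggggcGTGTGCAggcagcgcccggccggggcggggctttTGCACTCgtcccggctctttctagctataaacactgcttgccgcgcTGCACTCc
MT1X, chr16:56682220-56682469, plus strand: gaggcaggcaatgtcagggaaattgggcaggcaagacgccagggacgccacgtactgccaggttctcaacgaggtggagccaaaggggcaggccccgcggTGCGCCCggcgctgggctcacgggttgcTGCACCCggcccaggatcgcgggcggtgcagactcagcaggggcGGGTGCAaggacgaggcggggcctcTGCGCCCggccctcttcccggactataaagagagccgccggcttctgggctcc
MT1H, chr16:56669564-56669813, plus strand: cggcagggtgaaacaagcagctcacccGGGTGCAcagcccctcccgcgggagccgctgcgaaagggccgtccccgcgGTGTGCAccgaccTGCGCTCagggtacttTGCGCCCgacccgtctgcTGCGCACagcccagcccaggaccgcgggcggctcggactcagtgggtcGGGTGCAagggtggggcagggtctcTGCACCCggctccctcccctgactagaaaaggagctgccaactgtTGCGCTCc
SLC30A1, chr1:211579162-211579411, minus strand: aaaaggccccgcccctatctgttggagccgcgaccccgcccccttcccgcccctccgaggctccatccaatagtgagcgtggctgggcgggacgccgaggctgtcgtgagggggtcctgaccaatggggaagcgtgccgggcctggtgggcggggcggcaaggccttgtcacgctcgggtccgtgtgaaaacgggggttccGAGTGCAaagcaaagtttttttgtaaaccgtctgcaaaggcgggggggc

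The promoter of MT2A held 8 matches, 7 of them before the start, and that of MT1X held 4. The promoter of SLC30A1 held 2 matches, 1 on each side of the start. At least 8 matches occurred in 0.0199% of the 35116 promoters searched, at least 4 in 0.601% and at least 2 in 8.6%, while 29.6% held 1 or more. The promoter of MT1H held 8 matches, as many as that of MT2A, although its transcript was not above the filter in any arm (values below). No match was found in the promoter of MTF1 itself, which says only that these letters are not in that window.

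Values are log2 expression values, and their median over all probe sets and arrays was 2.42, which served as the floor of the filter. A gene was tested when at least 2 arrays reached it. Repetition B of S51A with lomustine stood apart, in that 8.72% of its probe sets lay over 1 log2 unit away from the other arrays' median. Repetition A of PAR with lomustine followed at 3.38%, close to repetition A of HRI without drug (3.11%) and repetition B of HRI with lomustine (2.97%). The targeted kinase genes and EIF2S1 were measured in overlapping ranges in their own line and in the others, for example 7.49 to 7.84 against 6.92 to 7.96 for EIF2AK1 in HRI. The sources used here do not say where the edits lie relative to the probes, so these ranges do not check the line labels. Of 9 blood markers on the array, 5 had a mean at or above the floor, and 0 of the 7 tested differed between arms (limma, adjusted p over all genes). PTPRC, the pan-leukocyte marker (1.56 to 2.08), and LYZ (1.52 to 1.90) were below the floor on every array. GATA1 (3.34 to 4.42) and HBE1 (2.63 to 3.79) were above it on every array, and the remaining blood markers had values on both sides. Epithelial markers reached the floor on average in 5 of 8 and fibroblast markers in 2 of 7, and none of the tested ones differed between arms. Single arrays did vary, most of all for EPCAM, which ran from 2.57 to 6.66.

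The comparison of SA100 with no drug asked which of these genes respond to the treatment read as arsenite. MT1M, MT1X, MT1F, MT1E, MT2A and SLC30A1 rose, by 2.10-fold to 6.77-fold, and MTF1 did not pass the test. These 6 of the 7 tested genes compare with 2.11% of all 17339 genes that rose, and 0 of 7 fell, against 0.952% of all genes (limma with terms for arm and line, two-sided, Benjamini-Hochberg over all genes tested, threshold 0.05). The median log2 change of the 7 genes was 1.67, beside 0.04 over all genes. The genes were chosen with earlier results of these data known, and metallothionein probe sets may read one another. The count and the median are thus a description and not independent evidence. Each of the 6 was higher with SA100 in 6 of 6 lines. They were called over these same lines, and the share of all genes higher in every line was not counted. In RNA from whole cultures, a change in some of the cells and a smaller change in every cell cannot be told apart, nor can fewer cells of a type and less RNA per cell.

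MT1M, a metallothionein of the inducible MT1 group, changed most. Without drug its values ran from 3.78 to 5.78 with a median of 4.13, and with SA100 they ran from 5.52 to 8.04 with a median of 7.52. The lowest SA100 array, that of S51A, lay below the highest untreated array, repetition A of PAR, so the groups overlapped at that edge. The means were 4.39 (SD 0.685, n = 9) and 7.15 (SD 1.01, n = 6), and the fitted log2 change was 2.76 (SE 0.285, adjusted p = 2.06e-06 by limma).

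MT1X ran from 6.99 to 8.52 without drug, with a median of 7.35, and from 9.05 to 9.76 with SA100, with a median of 9.65. All 6 SA100 arrays were above all 9 untreated arrays. The log2 change was 2.07 (SE 0.182, adjusted p = 1.53e-07 by limma), a 4.21-fold difference. MT1F ran from 4.86 to 6.62 without drug, with a median of 5.92, and from 6.69 to 8.14 with SA100, with a median of 7.995. Its groups did not overlap, but the gap between them was narrow, and the S51A and HRI arrays (6.69 and 6.82) formed its lower edge. The log2 change of MT1F was 1.67 (SE 0.270, adjusted p = 0.000727 by limma).

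MT2A, the isoform usually most abundant in human cells, ran from 5.96 to 6.90 without drug, with a median of 6.40, and from 7.30 to 7.77 with SA100, with a median of 7.44. Its groups did not overlap and its SA100 arrays were close together (SD 0.179, n = 6). The log2 change was 1.07 (SE 0.156, adjusted p = 0.000207 by limma). MT1E ran from 4.26 to 5.97 without drug, with a median of 5.04, and from 5.38 to 6.79 with SA100, with a median of 6.47. These groups overlapped, since the HRI array with SA100 (5.38) was below the highest untreated array, which also came from HRI. The log2 change of MT1E was 1.20 (SE 0.245, adjusted p = 0.00777 by limma). That call was lost without the PAR line (1.05, adjusted p = 0.063) and when the 6 changes within lines were averaged (1.18, SE 0.292, adjusted p = 0.13). The average came from a model with 1 mean for each group of line and arm, so its SE was estimated differently.

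SLC30A1, the zinc exporter, ran from 6.81 to 7.92 without drug, with a median of 7.38, and from 9.21 to 9.61 with SA100, with a median of 9.48. Every SA100 array exceeded every untreated array by more than 1 log2 unit. The log2 change was 1.99 (SE 0.183, adjusted p = 3.45e-07 by limma), a 3.97-fold difference. Its change varied little over the lines, from 1.82 in GCN2 to 2.18 in PKR and PERK.

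MTF1, the activator of these genes, ran from 6.20 to 7.14 without drug, with a median of 6.70, and from 6.21 to 6.68 with SA100, with a median of 6.60. The SA100 values lay within the untreated range. The log2 change was -0.12 (SE 0.168, 95% interval -0.47 to 0.23, adjusted p = 0.79 by limma). It was higher with SA100 in 1 of 6 lines. These arrays measure the MTF1 transcript and not the amount or activity of its protein.

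**Figure D1:**
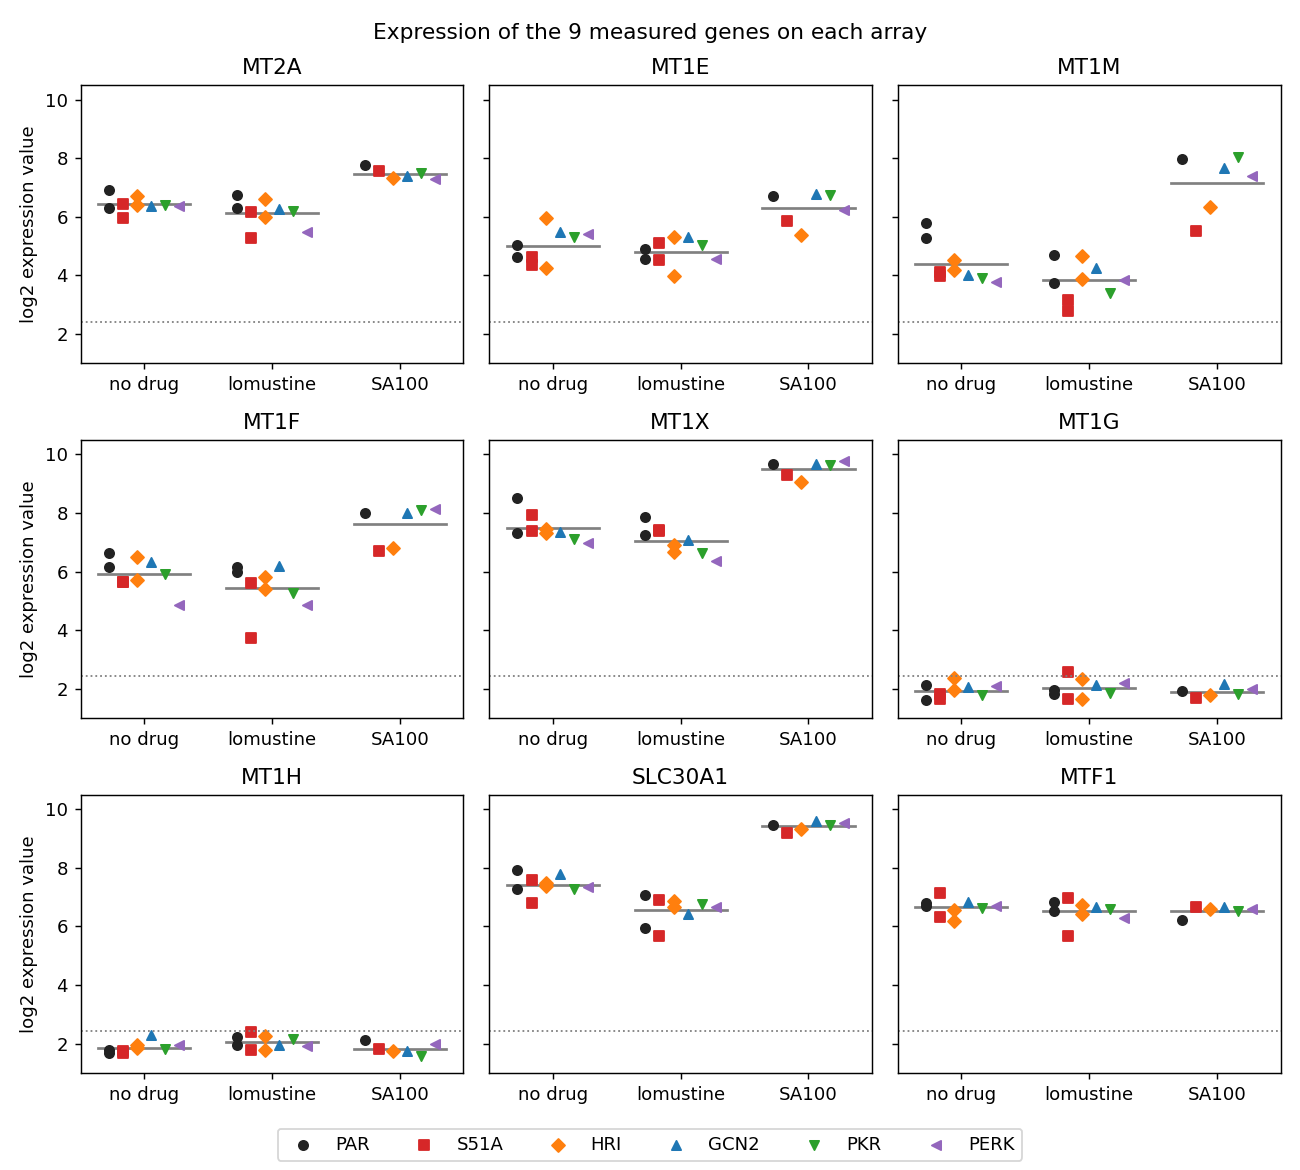
Log2 expression values of the 9 measured genes on each of the 24 arrays, by arm (horizontal axis) and line (symbol); grey bars are arm means and the dotted line is the median of all values, 2.42. The 6 SA100 arrays of SLC30A1 lie between 9.21 and 9.61, above all others, whereas MT1G and MT1H stay near or under the dotted line in every arm.

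The metallothionein genes split into those measured above the floor and those below it. MT1G reached the floor on 1 of 24 arrays, repetition A of S51A with lomustine (2.58), and its SA100 values ran from 1.69 to 2.17 around a median of 1.86. MT1H reached the floor on 0 of 24 arrays, and its SA100 values ran from 1.59 to 2.12 around a median of 1.78. Untreated values ran from 1.61 to 2.35 for MT1G and from 1.66 to 2.29 for MT1H, so the arms overlapped for both. Values under the floor carry no fold change, and a change of these transcripts was not detectable on these arrays.

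Along chromosome 16, RefSeq places the metallothionein genes and pseudogenes side by side from MT4 to MT1X, and SLC30A1 and MTF1 lie on chromosome 1. Of 19 symbols in that stretch, 15 had a probe set and 11 were tested. The 5 metallothionein genes above and the pseudogene MT1CP (log2 change 1.67, SE 0.138) rose with SA100, which makes 6. The pseudogene MT1JP was called as well, but it reached the floor on 5 of 6 SA100 arrays, 1 of 9 untreated arrays and 0 of 9 lomustine arrays. It thus passed the filter through the arm where it was high, and its call is not counted. MT1JP ran from 1.75 to 2.47 without drug and from 2.28 to 3.47 with SA100, and no fold change is given. The 6 genes that rose were interspersed with MT1L, MT1B, MT1G and MT1H, none of which was above the filter. MT1DP and MT1IP also lay among them and did not pass the test. MT4 and MT3, at the start of the stretch, reached the floor on 24 of 24 arrays. Their log2 changes with SA100 were 0.20 (SE 0.230, adjusted p = 0.72 by limma) and 0.41 (SE 0.192, adjusted p = 0.29), and neither passed the test. On the flanks, NUDT21 (-0.18), OGFOD1 (0.01) and BBS2 (-0.25) on one side and NUP93 (-0.14), MIR138-2 (-0.04) and SLC12A3 (0.33) on the other did not pass it. Metallothionein genes and pseudogenes are near-identical in sequence, so a probe set may read more than its named gene, and the split between neighbours, pseudogenes above all, is uncertain. How far the probe sets read each other was not tested.

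**Figure D2:**
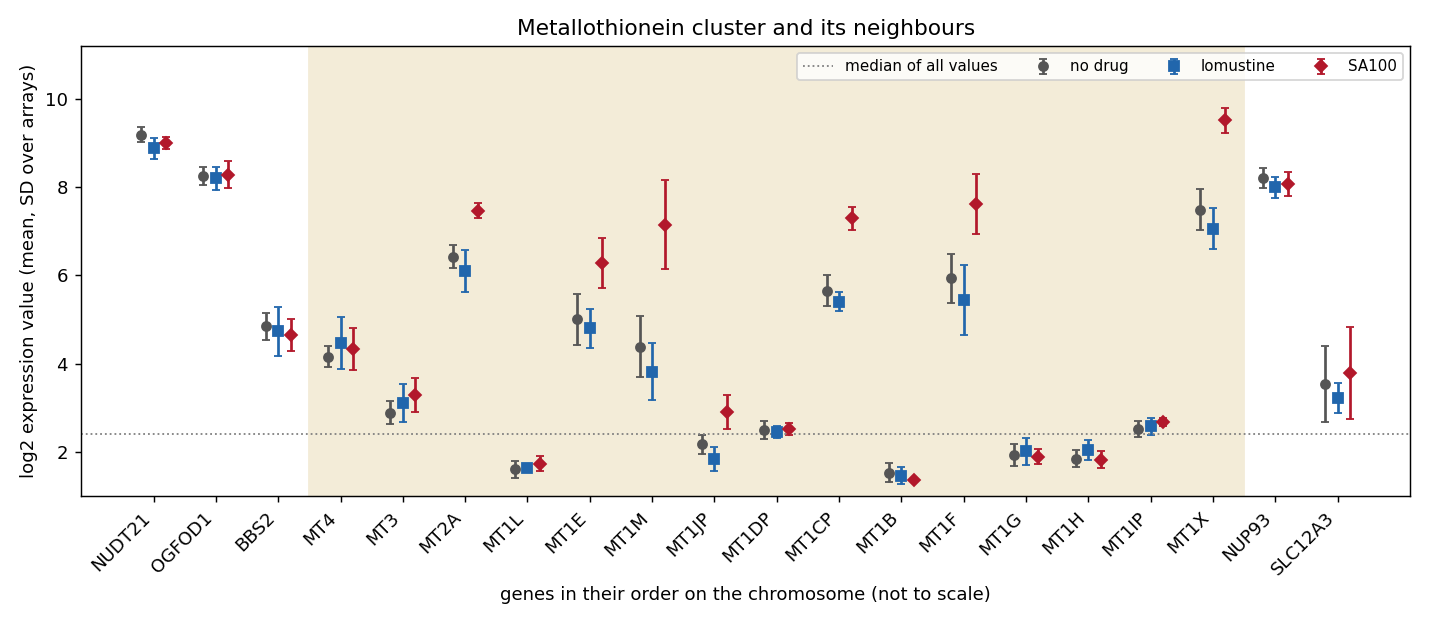
Mean log2 expression value with SD over arrays (9 without drug, 9 with lomustine, 6 with SA100) for genes with a probe set in the metallothionein stretch (shaded) and its neighbours, in RefSeq order and not to scale. MT2A, MT1E, MT1M, MT1CP, MT1F and MT1X stand higher with SA100, and NUDT21, OGFOD1 and NUP93 beside them differ little between arms.

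The comparison of lomustine with no drug asked whether a DNA-damaging drug moves the same genes. SLC30A1 fell, to 0.545 of its untreated level, and no other of the 7 genes passed the test in either direction. This is 1 of 7 lower, against 0.779% of all genes, and 0 of 7 higher, against 0.248% (limma), with 4 of 7 at an unadjusted p under 0.05, against 14.2% of all genes. The median log2 change of the 7 was -0.43, beside -0.04 over all genes.

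SLC30A1 ran from 5.69 to 7.09 with lomustine, with a median of 6.67, against 6.81 to 7.92 without drug. The arms overlapped between 6.81 and 7.09. The log2 change was -0.88 (SE 0.162, adjusted p = 0.00815 by limma), and it was lower in 6 of 6 lines, by -0.53 in PKR to -1.37 in GCN2. The lowest lomustine value, 5.69, came from the S51A array that stood apart, and the next, 5.96, from repetition A of PAR. Without both arrays the change was -0.66 (adjusted p = 0.011). The call was lost without the GCN2 line (-0.82, adjusted p = 0.050). It was also lost when changes within lines were averaged (-0.87, SE 0.231, adjusted p = 0.46). That average came from a model with 1 mean for each group of line and arm, so its SE was estimated differently. Over the 12 arrays of the duplicated lines the call was lost too (-0.89, adjusted p = 0.40, and 0.52 with the replicate letter as a block).

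The metallothionein genes had lower means with lomustine but did not pass the test. MT1X had a log2 change of -0.43 (SE 0.161, adjusted p = 0.22 by limma), MT1M of -0.57 (SE 0.253, adjusted p = 0.31) and MT1F of -0.49 (SE 0.239, adjusted p = 0.36). MT2A had a change of -0.31 (SE 0.138, adjusted p = 0.31) and MT1E of -0.20 (SE 0.217, adjusted p = 0.71). MT2A, MT1F, MT1X and SLC30A1 were lower in all 6 lines, which is 4 of 7 genes against 8.71% of all genes. In none of the 7 was every lomustine array below every untreated array, against 0.0923% of all genes. MTF1 had a log2 change of -0.13 (SE 0.149, 95% interval -0.44 to 0.18, adjusted p = 0.75).

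**Figure D3:**
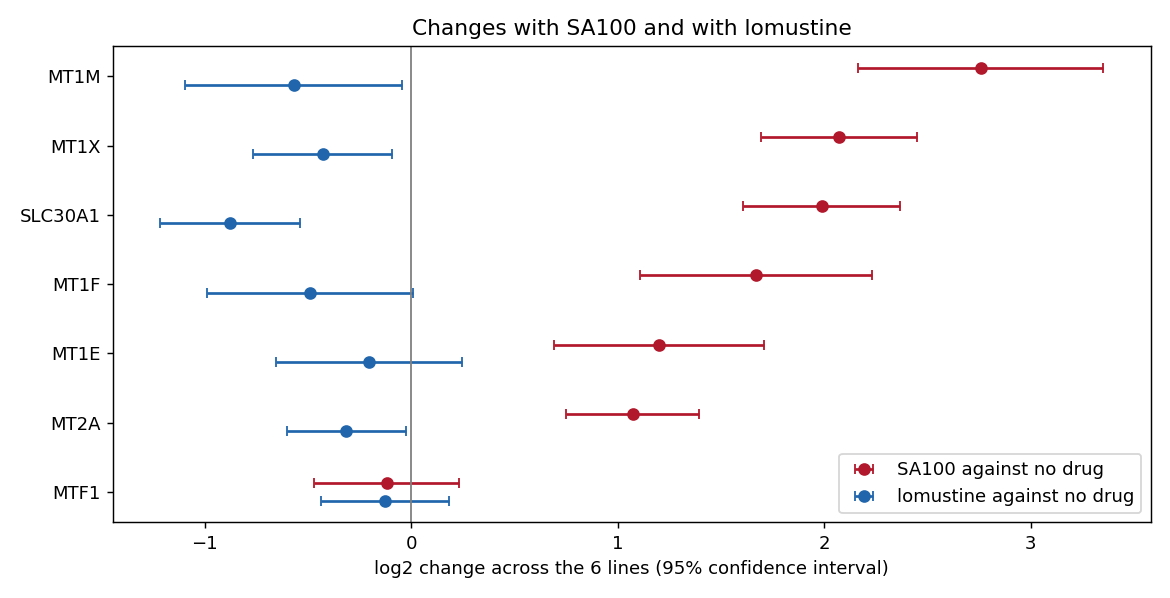
Fitted log2 change against no drug with its 95% confidence interval for the 7 tested genes, SA100 in red and lomustine in blue, over 6 lines and 24 arrays. Intervals for SA100 lie above 0 for 6 genes, and the SLC30A1 interval for lomustine (-1.21 to -0.54) lies below 0.

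Set against lomustine directly, SA100 gave higher values for the same 6 genes: 6 of 7 were higher, against 5.48% of all genes, and 0 of 7 lower, against 0.473%. The contrast shares its arrays with both comparisons above and is no independent evidence. SLC30A1 differed by 2.86 (SE 0.183), a 7.28-fold difference, and MT1M by 3.33 (SE 0.285). MT1X differed by 2.50, MT1F by 2.16, MT1E by 1.40 and MT2A by 1.39. MTF1 differed by 0.01 (SE 0.168, adjusted p = 0.99 by limma). MT2A, MT1F, MT1X and SLC30A1 had every SA100 array above every other array, 4 of 7 genes against 0.375% of all genes, and against the untreated arrays alone it was the same 4 against 1.11%.

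Across the lines, the question was whether eIF2-alpha phosphorylation or its kinases bear on the level of these genes. In an F test for any difference among lines, 0 of 7 genes passed, against 3.59% of all genes, while 3 (MT1M, MT1F and MT1X) had an unadjusted p under 0.05, against 12.4% of all genes (limma). MT1M had the lowest adjusted p, 0.12, and passed without PAR lomustine A (0.048) and without the SA100 array of PKR (0.047). In the pairwise comparison of S51A with PAR over all arms, MT1M was lower, the 1 of 7 genes called against 2.18% of all genes. Its log2 difference was -1.58 (SE 0.339, adjusted p = 0.011), or 0.334 of the level in PAR. MT1F differed by -1.13 (SE 0.321, adjusted p = 0.078), MT2A by -0.52 (SE 0.185, adjusted p = 0.22) and SLC30A1 by -0.30 (SE 0.218, adjusted p = 0.82).

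The lower MT1M values of S51A stood in all 3 arms. Without drug, MT1M measured 5.78 and 5.26 in PAR and 4.13 and 3.96 in S51A. With lomustine the PAR arrays measured 3.75 and 4.69 and the S51A arrays 3.15 and 2.79, and with SA100 the values were 7.97 and 5.52. S51A was lower than PAR on every array of the same arm. The lomustine value 2.79 came from the array that stood apart, and each SA100 value is a single array. PAR was itself the highest line without drug, since HRI averaged 4.35, GCN2 4.01, PKR 3.89 and PERK 3.78.

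Against PAR, 0 of 7 genes passed in HRI (0.144% of all genes), GCN2 (0.0692%), PKR (0%) or PERK (0.179%). At an unadjusted p under 0.05 there were 2 of 7 genes in HRI, 0 in GCN2, 1 in PKR and 4 in PERK, against 7.61%, 4.08%, 3.03% and 5.63% of all genes (limma). MT1X had the smallest p in HRI (-0.64, SE 0.216, adjusted p = 0.35), in PKR (-0.63, SE 0.251, adjusted p = 1.0) and in PERK (-0.71, SE 0.251, adjusted p = 0.59). SLC30A1 differed from PAR by between -0.30 and 0.07 in the 5 lines, with a 95% interval of -0.76 to 0.15 in S51A, the widest departure.

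The change with SA100 varied between lines most for MT1M. It was 1.47 in S51A, 2.00 in HRI, 2.45 in PAR, 3.60 in PERK, 3.65 in GCN2 and 4.15 in PKR, that is from 2.77-fold to 17.8-fold. Each of these rests on 1 SA100 array, and the untreated value of GCN2, PKR and PERK on 1 array too. The order of the levels differed from that of the changes: PAR had 5.52 without drug and 7.97 with SA100, near the SA100 values of PKR (8.04) and GCN2 (7.66), whereas S51A and HRI had 5.52 and 6.35 with SA100.

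In a model with 1 mean for each group of line and arm, which takes the spread of single-array groups from the 6 duplicated groups, the SA100 change differed among lines for 0 of 7 genes, against 0% of all genes. MT1M alone had an unadjusted p under 0.05 (0.013, adjusted p = 1.0 by limma), as did 0.657% of all genes. After these values were seen, S51A and HRI were set against the other 4 lines, and 0 of 7 genes passed, against 0% of all genes, with MT1M and MT1F at an unadjusted p under 0.05, against 1.55% of all genes. MT1M differed by -1.73 (SE 0.399, unadjusted p = 0.0013, adjusted p = 1.0), and MT1F by -1.30 (SE 0.555, adjusted p = 1.0). The split was chosen from these same values, so its p-values and the share of all genes beside them are no evidence. A difference between lines in the response is therefore a description here.

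Within GCN2, PKR and PERK, 1 SA100 array stands against 1 untreated array, and the same model takes their spread from other lines, so its p-values there rest on that assumption. With it, MT1M was past the threshold in GCN2 (adjusted p = 0.040) and PKR (adjusted p = 0.017), and not in PERK (3.60, adjusted p = 0.050). This was 1 of 7 genes in GCN2 (0.0634% of all genes) and 1 in PKR (0.0634%). In PAR (0.0288%), S51A (0.0288%), HRI (0.0231%) and PERK (0.0404%) 0 of 7 passed, with 6, 4, 3 and 4 of 7 at an unadjusted p under 0.05, against 4.26%, 1.28%, 1.92% and 3.18% of all genes. The call in GCN2 was lost under 10 of 28 alternatives (adjusted p up to 0.13), among them leaving out any one untreated array of PAR, S51A or HRI or either HRI lomustine array, with the log2 change at 3.59 or above. The call in PKR was lost under 3 of 28 (adjusted p up to 0.058), namely centring the arrays and leaving out either untreated HRI array. In PERK, MT1M passed under 7 of 28 (adjusted p down to 0.035). Whether the lines differ in the response is the question of the interaction test above.

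MT1F showed a spread of SA100 changes from 0.72 in HRI and 1.04 in S51A through 1.61 in PAR, 1.64 in GCN2 and 2.18 in PKR to 3.28 in PERK. PERK had both the lowest untreated value of MT1F (4.86) and its highest SA100 value (8.14). MT1X ranged from 1.65 in S51A, 1.66 in HRI and 1.75 in PAR to 2.32 in GCN2, 2.50 in PKR and 2.77 in PERK. MT2A ranged from 0.76 in HRI to 1.36 in S51A, so S51A stood at the other end of the order for MT2A than for MT1M. MT1E ranged from 0.27 in HRI to 1.87 in PAR, and its untreated HRI arrays differed from each other by 1.72, more than the SA100 change of any line except PAR.

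**Figure D4:**
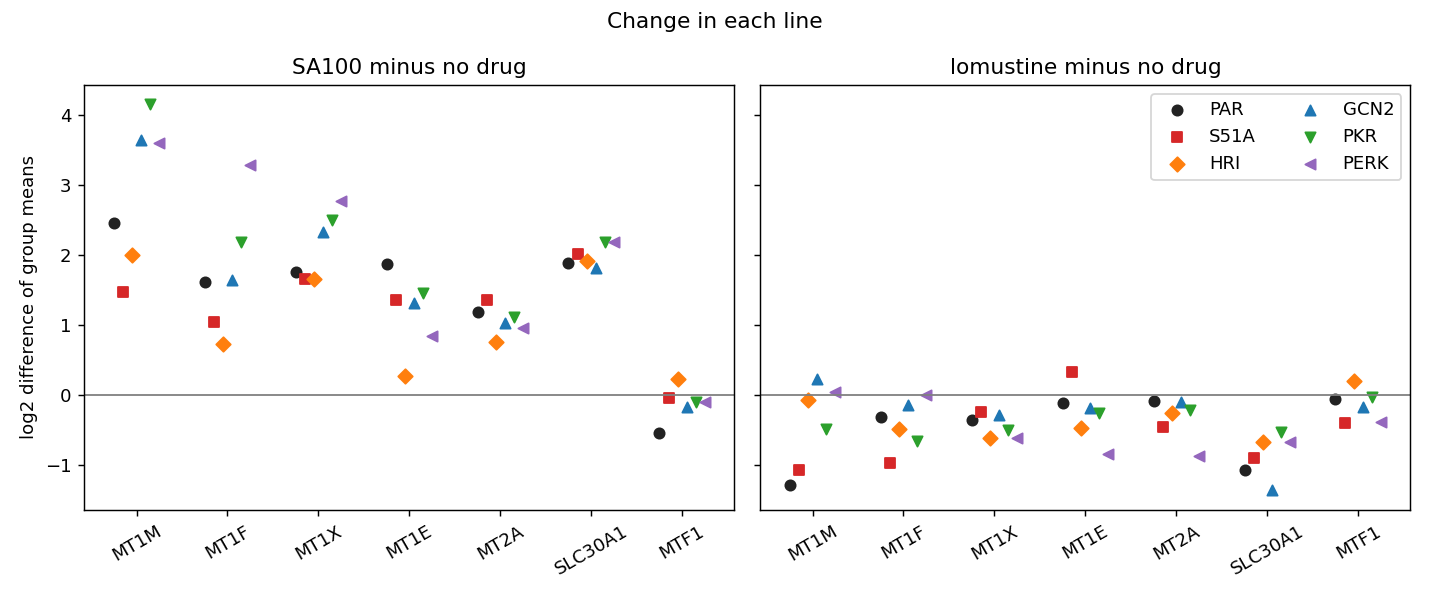
Log2 difference of group means, SA100 minus no drug (left) and lomustine minus no drug (right), in each of the 6 lines (symbols) for the 7 tested genes; single points carry no error bar because most groups hold 1 array. MT1M spreads from 1.47 in S51A to 4.15 in PKR with SA100, whereas SLC30A1 stays between 1.82 and 2.18.

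The lomustine change differed among lines for 0 of 7 genes, against 0% of all genes, with 0 of 7 at an unadjusted p under 0.05, against 0.26% of all genes (limma). Within the duplicated lines, 0 of 7 genes passed in PAR (0% of all genes), S51A (0.0115%) and HRI (0%), with 2, 1 and 0 of 7 at an unadjusted p under 0.05, against 2.9%, 4.08% and 1.49% of all genes. MT1M had a change of -1.30 in PAR and -1.07 in S51A but between -0.49 and 0.22 in the other 4 lines. In S51A the lomustine arrays of MT1F differed by 1.89 from each other, and the lower one (3.72) was the array that stood apart.

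The 6 genes that rose with SA100 moved together over the 18 group means, with Pearson r between pairs from 0.83 (MT1E with MT1X) to 0.95 (MT1M with MT1F), whereas MTF1 had r between -0.14 and 0.01 with them. The points share lines, arms and normalization, and the r values are given as a description. The 6 were picked by their rise with SA100, so high r among them and low r with MTF1 follow partly from that. Probe sets of near-identical metallothionein genes may also read one another. Among all other tested genes, the 5 with the pattern most like MT1M were MT1F (r = 0.947), the transcription factor gene KLF6 (0.945), MT1CP (0.944), LMAN2L (0.934) and NAXD (0.931). For MT1X they were MT1CP (0.971), GRWD1 (0.959), KLF6 (0.946), SLC30A1 (0.936) and SERPINH1 (0.931), which encodes a collagen chaperone. For SLC30A1 they were ZBTB2 (0.975), KATNIP (0.942), MT1CP (0.938), MT1X (0.936) and MCL1 (0.931), an anti-apoptotic BCL2 family gene. ZBTB2, a zinc finger gene, had changes of 1.27 (SE 0.204) with SA100 and -0.65 (SE 0.181) with lomustine, the same signs as SLC30A1. KLF6 had 1.80 (SE 0.157) with SA100 and -0.14 (SE 0.139) with lomustine.

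Other genes of metal handling were taken as lists. Over all genes, 2.11% rose and 0.952% fell with SA100, and 0.248% rose and 0.779% fell with lomustine. Against lomustine, 5.48% were higher and 0.473% lower with SA100. These shares stand beside the counts of every list. Of 12 other metallothionein genes and pseudogenes, 9 had a probe set and 7 were tested: MT1CP rose with SA100, none fell, and 0 changed with lomustine. MT1JP is left out of this count for the reason above. Of the other 9 genes of the SLC30 family, 7 were tested and 0 changed in any of the 3 comparisons of arms (limma). The smallest p with SA100 belonged to SLC30A4 (-0.16, adjusted p = 0.63) and SLC30A9 (-0.17, adjusted p = 0.64), and with lomustine SLC30A7 measured -0.29 (adjusted p = 0.35). The median log2 change of these 7 genes was -0.06 with SA100 and -0.17 with lomustine, so SLC30A1 was the member of its family that was called. Whether SLC30A1 differs from the rest of its family was not tested.

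Zinc importers of the SLC39 family had 13 of 14 members tested, of which 1 was lower with SA100, beside 0.952% of all genes. SLC39A10, which brings zinc into the cell, fell with SA100 (log2 change -0.28, SE 0.074, adjusted p = 0.045) and was also lower than with lomustine (-0.26, adjusted p = 0.041). None rose, and with lomustine 0 of 13 changed, the smallest p belonging to SLC39A11 (-0.32, adjusted p = 0.22). Of 8 copper handling genes, all tested, 0 changed in any comparison of arms. SOD1, the copper-zinc superoxide dismutase, had 0.27 with SA100 (SE 0.084, adjusted p = 0.094), and the copper importer SLC31A1 had -0.20 (SE 0.108, adjusted p = 0.36).

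In the list of glutathione synthesis and arsenic handling, 11 of 14 genes were tested, 1 rose with SA100, beside 2.11% of all genes, and none fell, beside 0.952%. Counts of 0 or 1 in lists this short are given as a description and show nothing particular to any list. GSTO1, a glutathione transferase that can reduce arsenic compounds, rose by 0.60 (SE 0.140, adjusted p = 0.022). GCLM, the modifier subunit of the enzyme that limits glutathione synthesis, had 0.53 (SE 0.262, adjusted p = 0.32). With lomustine 0 of 11 changed, and SLC2A1, the glucose transporter GLUT1, had -0.25 (SE 0.093, adjusted p = 0.22). SA100 exceeded lomustine for GSTO1 (0.86, SE 0.140) and SLC2A1 (0.49, SE 0.105). The median log2 change of this list with SA100 was 0.10, beside 0.04 over all genes and 1.67 for the 7 genes described first.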

How the data were processed

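The values are log2 expression values as the authors deposited them, per the labels from Affymetrix arrays of total RNA and, per the submitters' processing notes, made with RMA and the R package affy. Versions, filters and the genome build are not given in the sources used here. Arrays give no read depth, and their number limits the precision. Values ran from 0.71 to 12.47 and array medians from 2.34 to 2.58.

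Probe sets were named from the platform's annotation, which may be old. Of 53617, 23558 had 1 symbol, 2155 several and 27904 none, and 3 symbols were updated. The first kind gave 22109 genes. For 618 genes with several probe sets, the one with the highest mean was used. Genes with at least 2 arrays at 2.42 or higher, 17339 in all, were tested.

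Tests used limma 3.58.1 in R 4.3.3, with 2-sided p-values adjusted by Benjamini-Hochberg over the 17339 genes. Arms and lines were compared by fitting arm and line together (16 residual degrees of freedom). Changes within and between lines, and the changes averaged over lines, used 1 mean per group (18 groups, 6 residual degrees of freedom). Only the comparison of SA100 with no drug was tried on simulated data, with independent normal noise for each gene. The tests within and between lines were not simulated. Arrays were not paired by their repetition letters.

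The genes and lists were chosen with earlier results of these data known. The text names the 10 genes, the 5 genes most like MT1M, MT1X and SLC30A1 by Pearson r, and from each list the genes past the test or those with the smallest p. The alternatives were other filters, other choices of probe set, another normalization, another prior, fewer arrays, changes averaged within lines, a replicate block, and leaving out each array or line. Promoters came from RefSeq.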

Additional observations from a re-analysis of the deposited data

Results flagged for a closer look

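MTF1 in the SA100 arm had 1 array apart from the other 5. The PAR array measured 6.21 and the nearest of the others 6.52, a gap that took 0.655 of the range of the 6 arrays, past the critical value of Dixon's test. This was 1 of 21 combinations of gene and arm examined, and chance alone marks about 1 in 20.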

How the results depend on the processing

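With SA100, all alternatives left 5 or 6 of the 7 genes higher, against no drug and against lomustine, and MT1E was the gene lost. With lomustine, SLC30A1 was no longer called, leaving 0 genes, under the mean of the line-wise changes, without the GCN2 line, and over the 12 arrays of the duplicated lines with or without a replicate block. The block alone moved its adjusted p from 0.40 to 0.52, and the letters gave no common pairing: over genes, A minus B without drug and with lomustine had r = 0.334 (PAR), -0.388 (S51A) and -0.561 (HRI). Its log2 change ran from -0.97 to -0.66 over all alternatives. Leaving out single arrays gave 0 to 1 genes for any difference among lines and 0 to 1 for lomustine within a duplicated line. The latter was MT1F in S51A without lomustine array A (adjusted p = 0.023), which left the array that stood apart as the only one of its group.

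MT1M in S51A against PAR kept its call, from -1.81 to -1.33 (adjusted p up to 0.049). MT1F in S51A against PAR passed after a new quantile normalization (adjusted p = 0.038), without S51A lomustine A (0.033), without the SA100 array of PERK (0.037) and without the PERK line (0.045).

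MTF1, never called, changed sign. Its lomustine change was 0.035 after a new quantile normalization and 0.018 without both S51A lomustine B and PAR lomustine A. Its difference between SA100 and lomustine was -0.15 after the new normalization, -0.078 without the S51A line, -0.034 without the PERK line, -0.12 without both arrays, and -0.11 to 0.11 without single arrays. Its difference between S51A and PAR was 0.00401 after the new normalization and -0.19 to 0.17 without single arrays. The cause of these shifts was not tested. Low signal limits MT1G and MT1H, and 1 array in 12 of 18 groups limits every statement on single lines.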
